A study of Mus musculus with 9 samples.

Results

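In rat liver, 9 genes of the pericentral zone, the layer of hepatocytes around the central vein, were followed across 3 treatment groups: Cyp2e1, Glul, Oat, Rhbg, Rgn, Slc1a2, Axin2, Lgr5 and Tbx3. They were chosen by name, as known pericentral or Wnt target genes, with earlier results of these data known, which bears on every comparison with all tested genes. All 9 are among the 37203 gene entries of the count table, and 8 of them are among the 14581 genes that held enough counts to be tested. The exception is Lgr5. RNA of 9 liver libraries from Wistar rats, male by the labels, was sequenced by an Ion Proton protocol, with 3 libraries per group. The labels' organism field names mouse, against the strain. The schisandrin B group was given the liver-injuring solvent carbon tetrachloride (CCl4) for 8 weeks, joined by daily schisandrin B, a lignan of Schisandra fruit, in the last 4 weeks. Daily doses of 25 and 50 mg/kg were used in the study, and the labels do not say which of them these libraries represent. The fibrosis group had received CCl4 alone, over the same 8 weeks, dosed 3 times weekly with 2 mL/kg of a 50% mixture with olive oil. Normal rats were given olive oil in place of CCl4. The study had 8 rats per group, and the labels leave unsaid whether each library is its own animal. The errors and p-values therefore describe library-to-library spread, which may be technical.

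Hepatocytes differ along the path of blood from the portal tract to the central vein. Wnt proteins made near the central vein stabilise beta-catenin in the neighbouring hepatocytes, and beta-catenin with TCF factors turns on a pericentral gene set, as known mainly from mice. That set includes cytochrome P450 enzymes, which turn CCl4 into a radical, and enzymes and transporters that capture the ammonia left over by the urea cycle upstream. Axin2, Lgr5 and Tbx3 are also targets of the pathway, and Axin2 restrains it in turn.

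Library totals ran from 10320299 to 16255167 counts, and levels are given as CPM, each library's counts scaled to a common total with TMM factors. A level of 3 counts corresponds to 0.176 to 0.287 CPM, which covers counting error only. Fibrosis replicate 1 stood apart: over the tested genes its root mean square difference on the log2 scale was 0.85 from replicate 2 and 0.89 from replicate 3, against 0.53 to 0.62 for every remaining within-group pair. Among the 9 genes it was the lowest fibrosis library for 5 and the highest for 2, while schisandrin B replicate 1 and normal replicate 1 were each the lowest of their group for 7. The Y-linked transcripts Eif2s3y and Kdm5d had between 73 and 193 counts in every schisandrin B and fibrosis library and 0 in all normal libraries. On these transcripts the normal libraries did not match their male label, and the sex of the rats was not tested. Treatment and this difference, which may be one of sex, cannot be told apart in comparisons with the normal libraries. Schisandrin B against fibrosis does not hold this difference.

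All 8 tested genes rose in schisandrin B livers against fibrosis livers, from 3.61-fold for Axin2 to 13.9-fold for Tbx3. Against normal livers 7 of the 8 fell in fibrosis livers, and the ammonium transporter Rhbg did not pass the test. Between schisandrin B and normal livers 1 of the 8 was called, and that was Rhbg, which was 4.60-fold higher with schisandrin B. The first and second comparisons share the fibrosis libraries, so they are not independent of each other. A gene was called at a Benjamini-Hochberg adjusted p under 0.05 in edgeR's quasi-likelihood test over all 14581 genes. By that rule 47.3% of all tested genes were called between schisandrin B and fibrosis livers, 22.5% of all as higher. Between fibrosis and normal livers 48.3% were called, 22.9% of all as lower. Between schisandrin B and normal livers 10.5% were called, 5.25% of all as higher. The share called between these groups was 4.62% to 6.69% when any 1 of their 6 libraries was left out, and 21.1% in a fit on only these groups. By level alone, every schisandrin B library was above every fibrosis library for all 8 tested genes, where 27.8% of all tested genes were so placed and 56.8% did not overlap in either direction. Every fibrosis library was below every normal library for 7 of the 8, against 26.8% of all tested genes and 55.8% without overlap in either direction. Schisandrin B libraries were all above the normal ones for Rhbg, Rgn and Slc1a2 (19.9% of all tested genes) and all below for Cyp2e1 and Oat, with 38.7% of all tested genes not overlapping. The median change of the 8 genes was 2.72 in schisandrin B against fibrosis livers, -2.72 in fibrosis against normal livers and 0.31 in schisandrin B against normal livers on the log2 scale. Over all tested genes the medians were -0.03, 0.03 and 0.00 in the same order. In bulk liver, fewer pericentral hepatocytes and less of these transcripts per cell cannot be told apart.

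**Figure D1:**
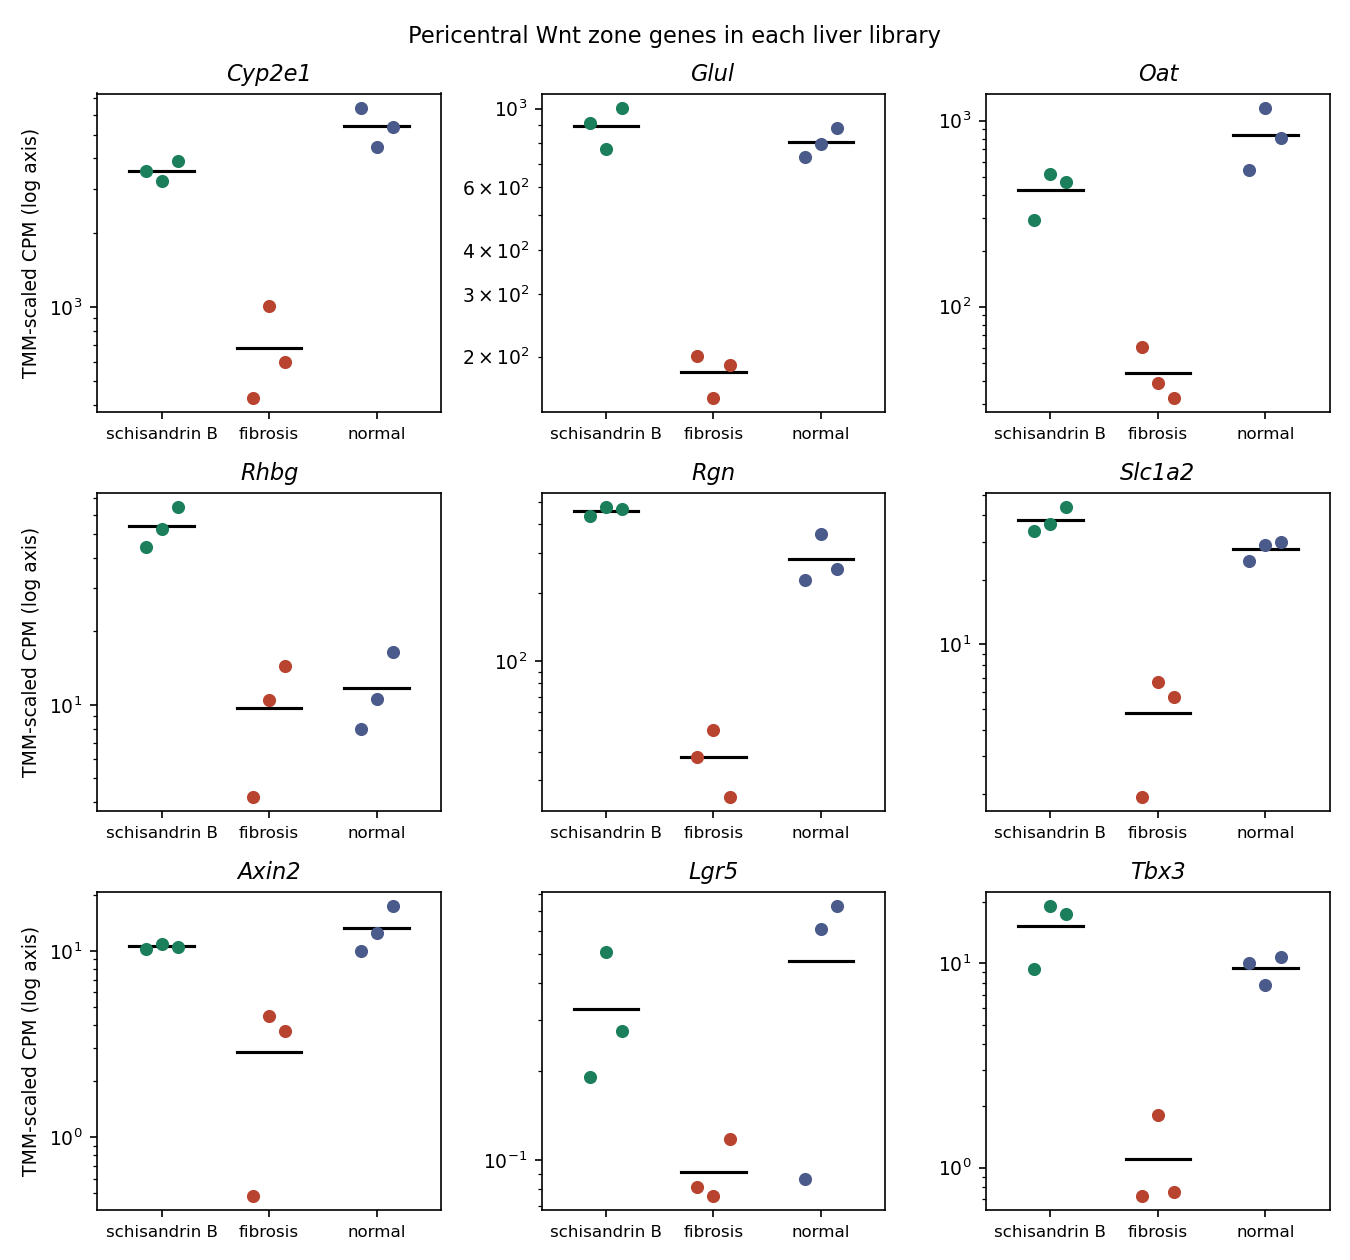
Level of each of the 9 genes in every library, as TMM-scaled CPM on a log axis, with 3 points per group and a bar at the mean. Fibrosis libraries lie below all schisandrin B libraries in every panel, and below all normal libraries in every panel except Rhbg and Lgr5. For Lgr5, with 1 to 9 counts per library, the levels are at or near the floor of 3 counts. The lowest schisandrin B and the highest fibrosis library both had 2 counts of Lgr5, so only the scaling sets these groups apart.

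Cyp2e1 encodes the cytochrome P450 that oxidises ethanol and is the main activator of CCl4. Its level was 3557, 3234 and 3918 CPM in schisandrin B livers, 430, 1013 and 600 CPM in fibrosis livers and 6405, 4449 and 5339 CPM in normal livers. The 3 groups did not overlap, and the schisandrin B libraries lay between the fibrosis and the normal ones. The rise in schisandrin B over fibrosis livers was 2.39 ± 0.31 (SE) in log2 units (edgeR adjusted p 0.00011). Fibrosis livers held 12.6% of the mean level of normal livers, a log2 change of -2.99 ± 0.32 (SE) with an edgeR adjusted p of 2.55e-05. Schisandrin B livers held 66.1% of the normal mean, which was not called (-0.60 ± 0.30, edgeR adjusted p 0.226). In a fit on only the schisandrin B and normal libraries that difference was called, with an edgeR adjusted p of 0.0278.

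Glul, Oat, Slc1a2 and Rhbg handle ammonia and glutamate. Glul is glutamine synthetase, which joins ammonia to glutamate and is normally confined to the hepatocytes next to the central vein. Glul was at 910.0, 769 and 1004 CPM in schisandrin B livers, 200.3, 153 and 190.0 CPM in fibrosis livers and 732, 796 and 881 CPM in normal livers. Its fibrosis libraries were alike and far below the others, while the schisandrin B and normal libraries overlapped. The change was 2.30 ± 0.21 (SE) in schisandrin B against fibrosis livers and -2.15 ± 0.20 (SE) in fibrosis against normal livers on the log2 scale, with edgeR adjusted p of 1.19e-05 and 1.33e-05. Against normal livers the schisandrin B difference was 0.16 ± 0.20 (SE), without a call.

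Oat, ornithine aminotransferase, breaks ornithine down toward glutamate in mitochondria. It had 291, 515 and 467 CPM in schisandrin B livers, 60.4, 38.9 and 32.4 CPM in fibrosis livers and 543, 1170 and 809 CPM in normal livers. Among the 8 tested genes Oat had the largest fall, to 5.22% of the normal mean in fibrosis livers (-4.26 ± 0.38 SE on the log2 scale, edgeR adjusted p 8.91e-06). It rose by 3.27 ± 0.36 (SE) in schisandrin B against fibrosis livers. Its schisandrin B mean was 50.5% of the normal mean and the groups did not overlap, but edgeR did not call the difference (-0.99 ± 0.33, adjusted p 0.0809), and DESeq2 did (0.0345).

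Slc1a2 is the glutamate transporter GLT-1, which in liver brings glutamate to the glutamine synthetase cells. Schisandrin B livers had 34.0, 36.7 and 43.8 CPM, fibrosis livers 1.94, 6.66 and 5.70 CPM and normal livers 24.4, 29.0 and 30.0 CPM. Every schisandrin B library was above every normal library, and every fibrosis library below both. The changes were 2.99 ± 0.34 (SE) in schisandrin B against fibrosis livers and -2.53 ± 0.34 (SE) in fibrosis against normal livers, with edgeR adjusted p of 5.84e-05 and 0.000133. The margin of schisandrin B over normal livers, 0.46 ± 0.31 (SE) on the log2 scale, was not called (edgeR adjusted p 0.39).

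Rhbg, an ammonium transporter of the Rh family, had a different pattern. It stood at 44.2, 52.5 and 64.5 CPM in schisandrin B livers, against 4.21, 10.4 and 14.4 CPM in fibrosis livers and 7.99, 10.6 and 16.4 CPM in normal livers. Fibrosis and normal libraries overlapped, and every schisandrin B library was above all 6 of them. Rhbg rose by 2.46 ± 0.40 (SE) over fibrosis livers and by 2.20 ± 0.40 (SE) over normal livers on the log2 scale, with edgeR adjusted p of 0.000686 and 0.00715. For fibrosis against normal livers the value was -0.26 ± 0.40 (SE) with an edgeR adjusted p of 0.618. That value has no settled sign: it was 0.10 without fibrosis replicate 1, 0.07 without normal replicate 3 and 0.23 with scaling by library totals.

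Rgn encodes regucalcin, a calcium-binding lactonase of the route by which rats make ascorbate (vitamin C). Its levels were 436, 478 and 466 CPM in schisandrin B livers, 37.9, 50.2 and 25.4 CPM in fibrosis livers and 229, 364 and 254 CPM in normal livers. The groups did not overlap, and the schisandrin B libraries were the highest, and the closest together in relative terms. Rgn rose by 3.60 ± 0.29 (SE) over fibrosis livers and fell to 13.4% of the normal mean in fibrosis livers, with edgeR adjusted p of 6.89e-06 and 1.38e-05. The schisandrin B mean was 163% of the normal mean, at 0.70 ± 0.26 (SE) on the log2 scale, and was not called (edgeR adjusted p 0.106). It was called with library totals (edgeR adjusted p 0.0415) and in a fit on only these groups (0.0189).

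Axin2, the scaffold of the beta-catenin destruction complex that is itself induced by the pathway, is widely used as its readout. It had 10.2, 10.9 and 10.5 CPM in schisandrin B livers, 0.486, 4.47 and 3.70 CPM in fibrosis livers and 9.96, 12.5 and 17.4 CPM in normal livers. The schisandrin B libraries nearly coincided, the fibrosis libraries were spread 9.19-fold with replicate 1 lowest at 6 counts, and the schisandrin B and normal libraries overlapped. Axin2 rose by 1.85 ± 0.52 (SE) over fibrosis livers and fell in fibrosis against normal livers (-2.18 ± 0.52 SE), with edgeR adjusted p of 0.0133 and 0.0055. Without fibrosis replicate 1 the changes were 1.37 and -1.70, both still called.

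Tbx3, a T-box transcription factor, had 9.37, 19.0 and 17.3 CPM in schisandrin B livers, 0.729, 1.82 and 0.763 CPM in fibrosis livers and 9.96, 7.79 and 10.8 CPM in normal livers. The fibrosis libraries, with 9 to 24 counts each, were below all others. Its rise over fibrosis livers, 3.79 ± 0.40 (SE) on the log2 scale, was the largest of the 8 tested genes, and 98 of all tested genes rose further. The edgeR adjusted p of that rise was 3.09e-05. In fibrosis livers it fell to 11.6% of the normal mean (-3.11 ± 0.40 SE, edgeR adjusted p 8.50e-05). Schisandrin B and normal libraries overlapped, at 0.69 ± 0.34 (SE) and an edgeR adjusted p of 0.22.

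Lgr5, a receptor for R-spondins that strengthens Wnt signals, was close to the detection floor. The libraries held 2, 7 and 3 counts in schisandrin B livers, 1, 1 and 2 in fibrosis livers and 1, 9 and 9 in normal livers. Pooled over libraries, the schisandrin B rate was 3.64 times the fibrosis rate with an exact 95% counting interval of 1.10 to 15.5. The fibrosis rate was 0.192 times the normal rate, with an interval of 0.0474 to 0.576. These intervals hold counting error only, and normal replicate 1, with 1 count, overlapped the fibrosis libraries. With no filter on low counts edgeR gave Lgr5 adjusted p of 0.219 and 0.0799 in these comparisons.

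**Figure D2:**
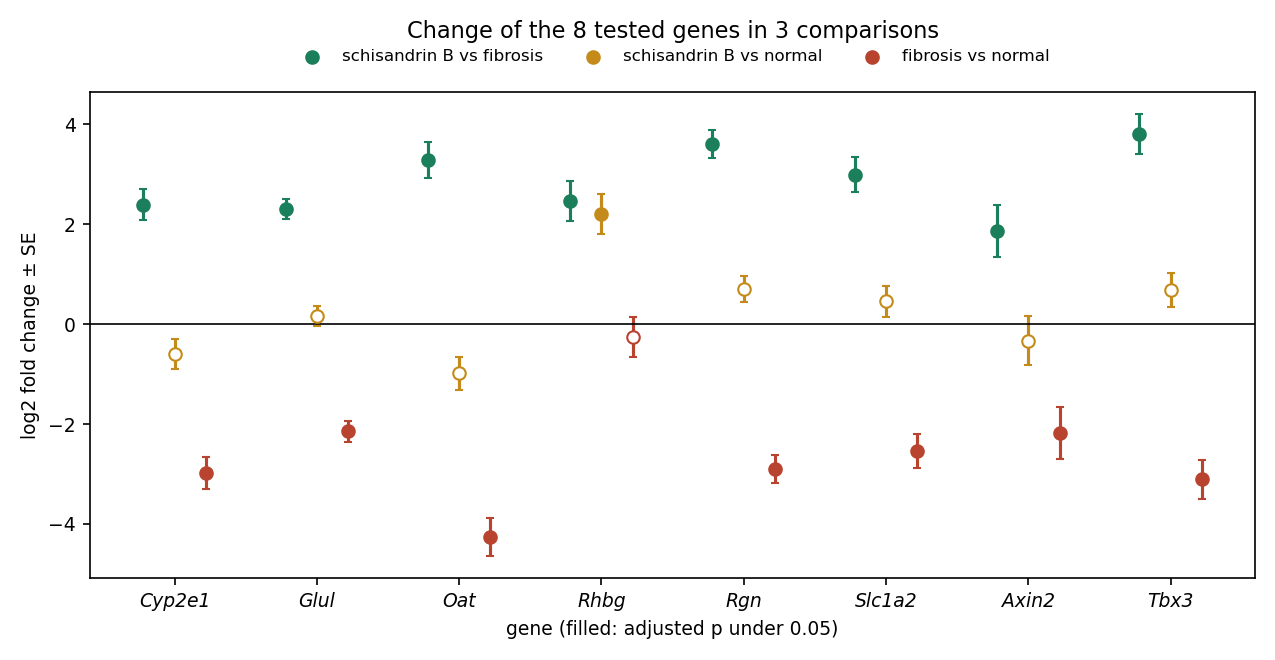
Log2 fold change with its SE for the 8 tested genes in 3 comparisons, with filled points for calls at an adjusted p under 0.05. All green points (schisandrin B over fibrosis) lie between 1.85 and 3.79, the red points (fibrosis over normal) are filled except for Rhbg, and the only filled amber point (schisandrin B over normal) is that of Rhbg.

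The order of the groups differed from gene to gene. By mean CPM fibrosis livers were lowest for all 9 genes, but Rhbg and Lgr5 overlapped between fibrosis and normal livers. For Rhbg that place is not settled, as the sign of its difference from normal livers changed between alternatives. Lgr5 was not tested. Schisandrin B livers had the highest mean of Glul, Rhbg, Rgn, Slc1a2 and Tbx3, and normal livers that of Cyp2e1, Oat, Axin2 and Lgr5. Apart from Rhbg, the upper 2 groups were not told apart by the test. For Cyp2e1, Glul, Oat, Rhbg, Rgn and Slc1a2, the 6 with a mean of at least 10 CPM, the profile over 9 libraries was compared as the root mean square difference of log2 levels, each centred on its own mean. The 10 pairs without Rhbg lay 0.53 to 0.99 apart, and the 5 pairs with Rhbg 1.02 to 1.83 apart. Cyp2e1 and Slc1a2 were the closest pair.

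The same measure was used to find the genes whose profile was most like that of Cyp2e1 and of Glul among 7808 genes. Nearest to Cyp2e1 was Pdp2, a pyruvate dehydrogenase phosphatase, at a difference of 0.19 and with 31.6, 4.76 and 43.6 CPM in schisandrin B, fibrosis and normal livers. Serpind1, Bhmt2, Rxrg and Akr1c14 followed at 0.21 to 0.23. Nearest to Glul was Fchsd2 at 0.15, with 59.9, 12.2 and 52.9 CPM in the same order, followed by Glyat, Syngr1, Cetn2 and Fam134c at 0.20 to 0.24. Of the 6 pericentral genes compared, the closest to Cyp2e1 was Slc1a2, at rank 173 among the 7808, and the closest to Glul was Cyp2e1, at rank 653. Libraries of a group share their treatment, so the 9 points behind each difference are not independent.

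General hepatocyte markers moved with the 9 genes. The summed level of 15 such markers, albumin among them, was 208896 to 235304 CPM in schisandrin B livers, 82919 to 124738 CPM in fibrosis livers and 248580 to 285912 CPM in normal livers. Of these 15 markers 7 rose and 2 fell in schisandrin B against fibrosis livers (median 0.55), and 1 rose and 9 fell in fibrosis against normal livers (median -1.02). With library totals the counts were 7 and 4, and 2 and 8. Over all tested genes, with TMM factors, 22.5% rose and 24.8% fell in the first comparison. In the second 25.4% rose and 22.9% fell. Each gene was also set against the summed counts of these markers in the same library, a ratio that no scaling factor enters. Albumin made up 61.8% to 63.7% of the marker counts in schisandrin B livers, 38.0% to 53.6% in fibrosis livers and 61.7% to 68.6% in normal livers. On this ratio all 8 tested genes were higher in every schisandrin B than in every fibrosis library, where 6.63% of all tested genes were so placed. For Axin2 these groups nearly touched. Its lowest schisandrin B library had 4.4621 and its highest fibrosis library 4.4617 counts per 100000 marker counts. Of the 8, 6 were lower in every fibrosis than in every normal library, against 4.60% of all tested genes. With albumin left out of the markers the numbers were 8 and 7 of the 8, against 12.7% and 9.42% of all tested genes. Cyp2e1 had 1404 to 1703 counts per 100000 marker counts in schisandrin B livers, 416 to 812 in fibrosis livers and 1790 to 2240 in normal livers. Glul had 334 to 436 in schisandrin B livers, 123 to 229 in fibrosis livers and 256 to 329 in normal livers. On this ratio Axin2 and Lgr5 overlapped between fibrosis and normal livers, and Rhbg had 4.08 to 17.4 in fibrosis livers against 2.79 to 6.13 in normal livers, also with an overlap. Lgr5 overlapped between schisandrin B and fibrosis livers too. Between schisandrin B and normal livers the ratio was higher without overlap for Glul, Rhbg, Rgn, Slc1a2 and Tbx3 (32.9% of all tested genes) and lower for Cyp2e1 (9.01%). Glul and Tbx3, which overlapped on CPM, were thus apart, and Oat, which was apart on CPM, overlapped. The overlap of Oat depended on albumin. With albumin left out, Oat and Cyp2e1 were both lower without overlap (11.3% of all tested genes). The same 5 genes were then higher without overlap (29.5%).

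Genes placed mainly in the pericentral zone outside these 9 mostly moved in the same directions. Of 18 such genes 15 rose and 0 fell in schisandrin B against fibrosis livers, with a median of 1.48 on the log2 scale. In fibrosis against normal livers 12 fell and 0 rose, with a median of -1.44. For comparison, 22.5% of all tested genes rose and 24.8% fell in schisandrin B against fibrosis livers. The shares were 25.4% and 22.9% in fibrosis against normal livers. Cyp7a1, which starts bile acid synthesis, rose by 6.15 ± 0.68 (SE), and the organic anion transporter Slco1b2 by 4.31 ± 0.33 (SE), with edgeR adjusted p of 8.40e-05 and 5.84e-06. Lect2, a secreted protein and beta-catenin target in mouse liver, averaged 179 ± 18.2 CPM in schisandrin B livers, 27.3 ± 2.28 CPM in fibrosis livers and 134 ± 22.4 CPM in normal livers (SD, n = 3 each).

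Of these 18 genes 3 were called higher in schisandrin B than in normal livers, as Rhbg was, where 5.25% of all tested genes were called higher. Nr1i3, the nuclear receptor CAR that induces drug-metabolising enzymes, had 41.6, 83.8 and 102 CPM in schisandrin B livers, 5.02, 6.21 and 1.70 CPM in fibrosis livers and 5.50, 3.93 and 13.4 CPM in normal livers. Its schisandrin B libraries were all above the other 6, at 3.32 ± 0.58 (SE) over normal livers on the log2 scale (edgeR adjusted p 0.00687). Acsm3, a medium-chain acyl-CoA synthetase, was 2.39 ± 0.38 (SE) and the bilirubin-conjugating enzyme Ugt1a1 1.03 ± 0.23 (SE) higher, with edgeR adjusted p of 0.00259 and 0.0179. The call of Ugt1a1 was lost when schisandrin B replicate 2 or 3, or normal replicate 1 or 2, was left out, with adjusted p of 0.0511 to 0.0858, and its reads can be shared with other Ugt1a transcripts.

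Most periportal genes, from the other end of the lobule, also passed the test. Of 19 genes 14 rose and 1 fell in schisandrin B against fibrosis livers (median 1.84), and 14 fell and 0 rose in fibrosis against normal livers (median -1.74). For comparison, with TMM factors 22.5% of all tested genes rose and 24.8% fell in the first comparison. In the second 25.4% rose and 22.9% fell. The urea cycle genes Ass1, Asl and Arg1 were called in neither comparison. The ornithine transcarbamylase gene Otc rose by 3.19 ± 0.47 (SE) and the growth factor gene Igf1 by 2.44 ± 0.29 (SE) over fibrosis livers. The 1 that fell was Cdh1, E-cadherin of epithelial junctions, at -2.47 ± 0.43 (SE), with 96.6, 89.2 and 71.7 CPM in schisandrin B livers against 874, 245 and 309 CPM in fibrosis livers. With scaling by library totals the counts were 13 and 2 in schisandrin B against fibrosis livers, and 13 fell and 2 rose in fibrosis against normal livers.

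**Figure D3:**
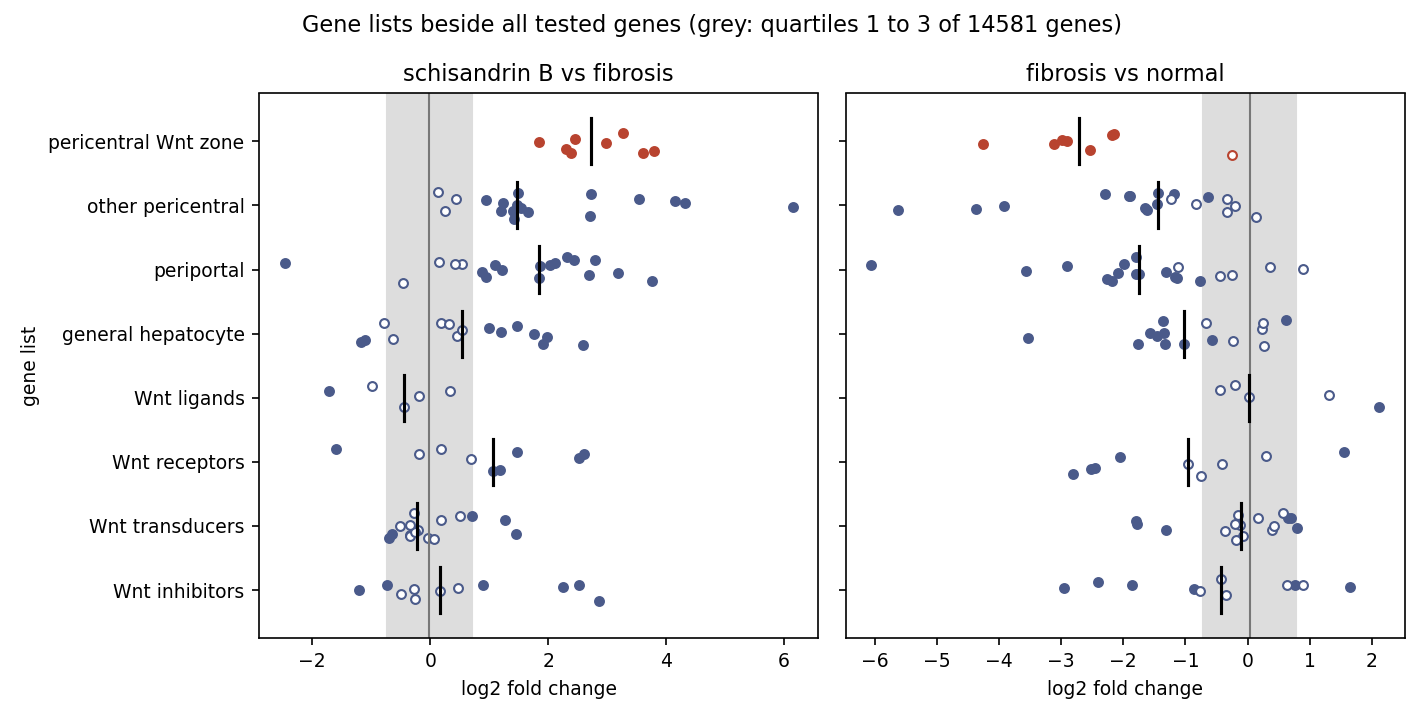
Log2 fold changes of the members of 8 gene lists in schisandrin B against fibrosis (left) and fibrosis against normal (right), with filled points for calls, a black bar at each median and the range between quartiles 1 and 3 of all tested genes in grey. The 8 tested genes of the top row have medians of 2.72 and -2.72, beside 1.48 and -1.44 for the other pericentral genes and 1.84 and -1.74 for the periportal genes.

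The Wnt ligand genes had another pattern. Wnt9b, which in mice is made by central vein endothelium, had 2.58, 2.41 and 1.46 CPM in schisandrin B livers, 10.8, 4.77 and 5.70 CPM in fibrosis livers and 1.20, 2.30 and 1.30 CPM in normal livers. Every fibrosis library was above every other one, with replicate 1 highest. Wnt9b fell in schisandrin B against fibrosis livers (-1.71 ± 0.40 SE, edgeR adjusted p 0.00457) and was higher in fibrosis than in normal livers (2.12 ± 0.41 SE, 0.00133), and both calls held in every alternative that tested it. Of 8 ligand genes 5 were tested, and Wnt2, Wnt4, Rspo1 and Rspo3 were called in none of the 3 comparisons. Wnt2 averaged 3.16 ± 1.15 CPM in schisandrin B livers, 4.33 ± 3.98 CPM in fibrosis livers and 1.73 ± 0.23 CPM in normal livers (SD, n = 3 each), and fibrosis replicate 1 alone had 8.91 CPM.

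Several receptors were low in fibrosis livers. Of 9 tested receptor genes 5 rose and 1 fell in schisandrin B against fibrosis livers (7 and 1 without fibrosis replicate 1, and 3 and 2 with library totals), and 1 rose and 4 fell in fibrosis against normal livers (1 and 6 without fibrosis replicate 1). Among all tested genes, with TMM factors, 22.5% rose and 24.8% fell in the first comparison. In the second 25.4% rose and 22.9% fell. Lgr4, the R-spondin receptor that hepatocytes carry beside Lgr5, had 71.0, 56.7 and 60.9 CPM in schisandrin B livers, 8.42, 11.0 and 11.5 CPM in fibrosis livers and 45.9, 62.4 and 60.6 CPM in normal livers. The fibrosis libraries were far below the others, at 2.61 ± 0.20 (SE) for schisandrin B over fibrosis livers and -2.45 ± 0.20 (SE) for fibrosis over normal livers (edgeR adjusted p 6.00e-06 and 5.80e-06). The Frizzled receptor Fzd8 changed by 2.52 and -2.51 in the same order. Fzd4 was lowest in fibrosis livers too, and was lower in schisandrin B than in normal livers (-1.33 ± 0.21 SE, edgeR adjusted p 0.00271), with 26.5 ± 1.79, 9.55 ± 1.61 and 66.8 ± 16.8 CPM in schisandrin B, fibrosis and normal livers (SD, n = 3 each). Fzd6 went the other way, lower in schisandrin B than in fibrosis livers (-1.61 ± 0.38 SE).

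Beta-catenin itself, Ctnnb1, averaged 180 ± 6.17 CPM in schisandrin B livers, 184 ± 3.25 CPM in fibrosis livers and 238 ± 19.1 CPM in normal livers (SD, n = 3 each) and was called in none of the 3 comparisons. Its normal libraries, at 223 to 259 CPM, were all above the schisandrin B (176 to 187) and fibrosis (181 to 187) libraries. Of all tested genes 18.8% lay wholly below normal in schisandrin B livers and 26.8% in fibrosis livers. Of the 16 tested genes of the transduction list 3 rose and 2 fell in schisandrin B against fibrosis livers (2 and 5 with library totals), and 3 rose and 3 fell in fibrosis against normal livers (7 and 3 with library totals). With TMM factors 22.5% of all tested genes rose and 24.8% fell in the first comparison. In the second 25.4% rose and 22.9% fell. The beta-catenin cofactor Bcl9l rose by 1.45 ± 0.20 (SE) over fibrosis livers, and Porcn, which lipidates Wnt proteins for secretion, by 1.27 ± 0.30 (SE). Tcf7l1, a TCF factor that mostly represses, was lower in schisandrin B than in normal livers (-1.07 ± 0.24 SE, edgeR adjusted p 0.0162), a call lost with library totals (0.0506) and without any one of schisandrin B replicates 1, 2 and 3 or normal replicate 3 (0.054 to 0.0753).

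Wnt inhibitors were split. Of 11 tested 4 rose and 2 fell in schisandrin B against fibrosis livers, and 2 rose and 4 fell in fibrosis against normal livers. Over all tested genes 22.5% rose and 24.8% fell in the first comparison, and 25.4% rose and 22.9% fell in the second. Rnf43, a ubiquitin ligase that removes Frizzled receptors and is a feedback target like Axin2, had 19.2, 21.2 and 16.2 CPM in schisandrin B livers, 1.46, 4.01 and 4.29 CPM in fibrosis livers and 18.8, 20.5 and 37.2 CPM in normal livers. As with Axin2, fibrosis replicate 1 was the lowest library. Apcdd1, a membrane-bound inhibitor, and Notum, which cleaves the lipid off Wnt proteins, rose by 2.86 ± 0.45 (SE) and 2.25 ± 0.52 (SE) over fibrosis livers. Nkd1, another feedback gene (named after its value was seen), was higher in fibrosis livers: it had 4.59 ± 0.385 CPM in schisandrin B livers, 7.62 ± 0.201 CPM in fibrosis livers and 4.49 ± 0.118 CPM in normal livers (SD, n = 3 each), and fell by 0.73 on the log2 scale in schisandrin B against fibrosis livers (edgeR adjusted p 0.0171).

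**Figure D4:**
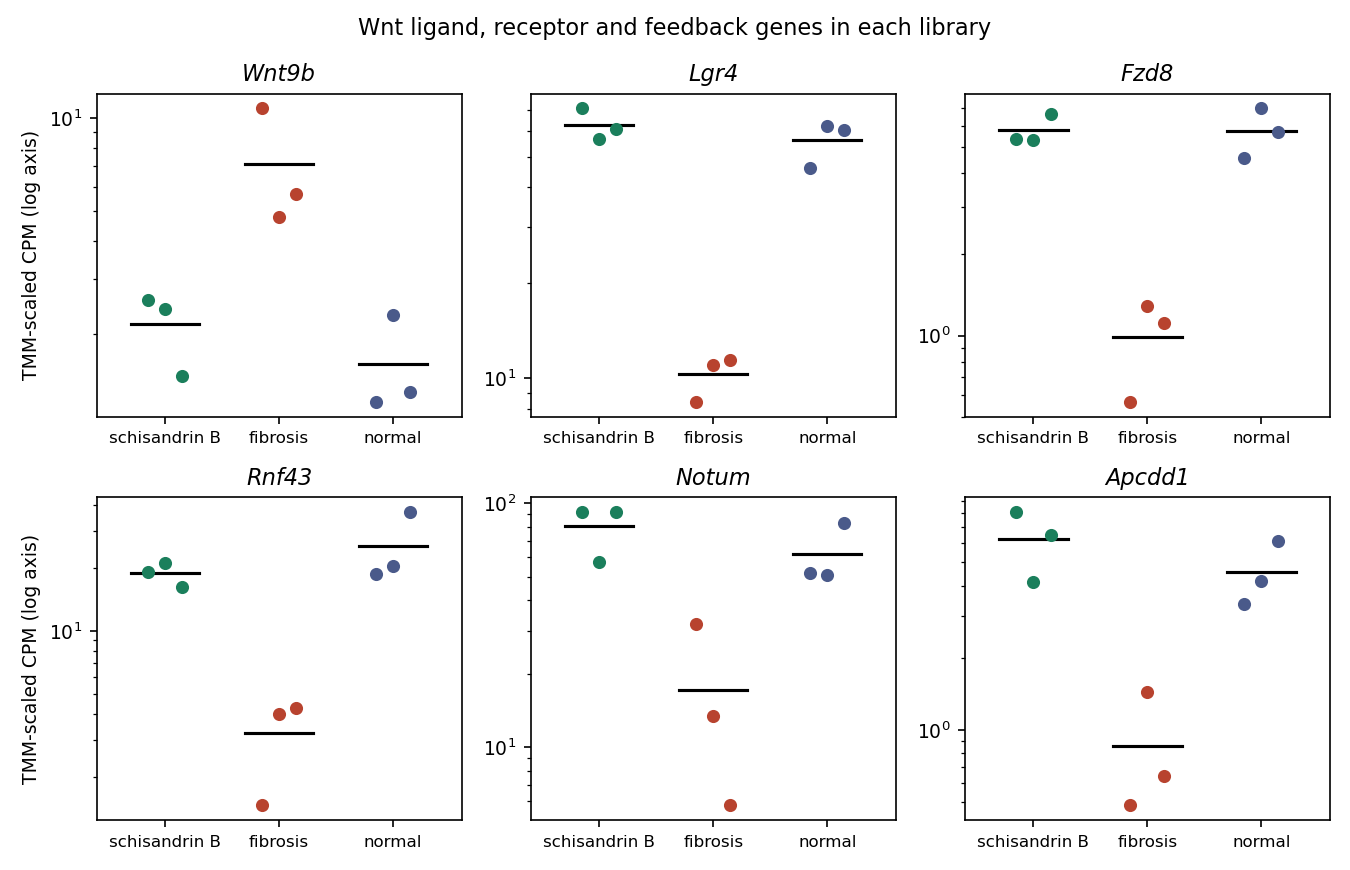
Level of the ligand gene Wnt9b, the receptor genes Lgr4 and Fzd8 and the inhibitor genes Rnf43, Notum and Apcdd1 in each library, as TMM-scaled CPM on a log axis, with a bar at the group mean. Wnt9b averaged 7.08 CPM in fibrosis livers against 1.60 CPM in normal livers, while the other 5 genes are lowest in fibrosis livers.

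Around Glul and Oat, the other genes of glutamate, glutamine, proline and ornithine handling had no common direction. Of 22 tested 7 rose and 6 fell in schisandrin B against fibrosis livers (7 and 8 with library totals), and 8 rose and 6 fell in fibrosis against normal livers (7 and 9 without fibrosis replicate 1, 9 and 4 with library totals). The shares over all tested genes, with TMM factors, were 22.5% higher and 24.8% lower in the first comparison. They were 25.4% higher and 22.9% lower in the second. Asns, asparagine synthetase, was high in fibrosis livers, at 2.14 ± 0.628 CPM in schisandrin B livers, 34.9 ± 17.6 CPM in fibrosis livers and 1.34 ± 0.75 CPM in normal livers (SD, n = 3 each). Aldh18a1, which turns glutamate toward proline and ornithine, was called higher in fibrosis than in normal livers (edgeR adjusted p 0.000164), with 17, 53 and 74 counts in fibrosis libraries against 1, 3 and 1 in normal libraries. The neutral amino acid transporters Slc1a4 and Slc7a5 fell by 2.70 and 2.96 in schisandrin B against fibrosis livers. Genes low in fibrosis livers included Gls2, the periportal glutaminase that frees ammonia from glutamine (68.0 ± 29.0 CPM, against 271 ± 62.3 CPM in normal livers; SD, n = 3 each), Aldh4a1 of proline breakdown (-2.20 ± 0.32 SE on the log2 scale) and the transporter Slc38a4, which rose by 1.73 ± 0.24 (SE) with schisandrin B.

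On the ascorbate route of Rgn, 3 of 6 genes rose and 2 fell in schisandrin B against fibrosis livers, and 2 rose and 2 fell in fibrosis against normal livers. Of all tested genes 22.5% rose and 24.8% fell in the first comparison, and 25.4% rose and 22.9% fell in the second. Gulo, which catalyses the last step, had 1287 ± 100.5 CPM in schisandrin B livers, 443 ± 161 CPM in fibrosis livers and 1390.0 ± 226 CPM in normal livers (SD, n = 3 each). The ascorbate transporter Slc23a1 rose by 2.04 ± 0.18 (SE) over fibrosis livers. Ugdh, which makes glucuronate from UDP-glucose, was opposite, at 113 ± 13.5 CPM in schisandrin B livers, 577 ± 29.8 CPM in fibrosis livers and 160 ± 16.7 CPM in normal livers (SD, n = 3 each).

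Among 7 genes tied to Cyp2e1, 2 rose and 2 fell in schisandrin B against fibrosis livers (1 and 2 with library totals). With TMM factors 22.5% of all tested genes rose and 24.8% fell in that comparison. Cyb5a, cytochrome b5, which passes electrons to P450 enzymes, rose by 2.43 ± 0.22 (SE) over fibrosis livers and was lower in fibrosis than in normal livers (-1.84 ± 0.22 SE). Por, the P450 reductase (also among the 18 pericentral genes, as is Gulo), was called in none of the 3 comparisons, at 765 ± 136, 563 ± 139 and 510 ± 132 CPM in schisandrin B, fibrosis and normal livers (SD, n = 3 each).

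Markers of other liver cells were summed in the same way. The summed level of 12 endothelial markers was 440 to 467 CPM in schisandrin B livers, 348 to 528 CPM in fibrosis livers and 478 to 625 CPM in normal livers, and 4 rose and 0 fell in schisandrin B against fibrosis livers (1 and 3 with library totals). The 8 bile duct markers summed to 30.2 to 51.9 CPM in schisandrin B livers, 75.4 to 83.2 CPM in fibrosis livers and 36.1 to 46.5 CPM in normal livers. Stellate cell markers, 12 in number, ranged from 513 to 693 CPM in schisandrin B livers, from 293 to 476 CPM in fibrosis livers and from 275 to 431 CPM in normal livers. Most of that sum was collagen Col3a1, at 364 CPM in schisandrin B livers, 221 CPM in fibrosis livers and 202 CPM in normal livers on average. Of the 12, 6 rose and 2 fell in schisandrin B against fibrosis livers (3 and 2 with library totals), and 3 rose and 2 fell in fibrosis against normal livers (5 and 2 with library totals). Among all tested genes, with TMM factors, 22.5% rose and 24.8% fell in the first comparison. In the second 25.4% rose and 22.9% fell. The smooth muscle actin Acta2 and desmin, Des, which mark contractile cells, fell by 1.86 and 1.37 in schisandrin B against fibrosis livers, while Lrat, which stores retinol in quiescent stellate cells, rose by 3.87. The collagens Col1a1, Col1a2 and Col3a1 were also called higher, by 1.55, 1.07 and 0.72. The remaining called rises were Lum (2.76) and Ngfr (2.74), which averaged only 0.28 and 0.07 CPM in fibrosis livers. The 7 macrophage markers summed to 661 to 956 CPM in schisandrin B livers, 772 to 1579 CPM in fibrosis livers and 1203 to 1833 CPM in normal livers, and 9 lymphocyte markers to 78.4 to 109 CPM, 55.5 to 110.1 CPM and 103 to 156 CPM in the same order. None of these lists had a marker at 0 in a whole group except the lymphocyte list, with 1 in schisandrin B livers. The part of cell composition in the levels of the 9 genes was not tested.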

How the data were processed

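The authors deposited unnormalized whole-number read counts for each gene of 9 rat liver libraries, in groups taken from the labels' source names. Per the labels' protocols, RNA was extracted with Trizol and sequenced on the Ion Proton. The sources used here name no aligner, counter or annotation. The submitters' processing notes name the mouse build GRCm38, while the strain is Wistar and 1317 symbols start with RGD, a rat prefix. The mouse reference was therefore not used, no sequence or position is printed, and the planned promoter search was not run.

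The fit used edgeR 4.0.16 under R 4.3.3: filterByExpr with a minimum count of 10, TMM factors and a robust quasi-likelihood fit with one mean per group, tested on simulated data. The SE is the log2 fold change divided by the square root of the F statistic. Reads of paralogs may be shared, and whether counting used strand is not stated. Alternatives also used DESeq2 1.42.0 and limma 3.58.1. Figures were drawn with matplotlib 3.10.9.

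The 9 genes and the lists were chosen with earlier results of these data known. List genes named in the text were drawn from the up to 4 called genes with the lowest adjusted p per list and comparison, cell type lists aside. Profiles were compared on log2 CPM with a prior count of 2, over genes with a mean of at least 10 CPM, and the 5 nearest non-members were named. Ctnnb1, Por, Nkd1, Ass1, Asl, Arg1, the stellate markers and the uncalled Wnt ligands were named after their values were seen. The ratio to hepatocyte markers, with and without albumin, was added after seeing the data. Axin1 and Adgre1, planned for the lists, matched no symbol of the table. One list gene is not reported here.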

Additional observations from a re-analysis of the deposited data

How the results depend on the processing

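The 24 results of single genes (8 genes in 3 comparisons) were recomputed under 15 alternatives each, 360 values in all. Of these 352 kept their direction and side of the threshold, 0 lost a call, 5 gained one and 3 turned their sign. The 3 were Rhbg in fibrosis against normal livers, uncalled throughout, at 0.23 with library totals, 0.10 without fibrosis replicate 1 and 0.07 without normal replicate 3 (-0.66 to 0.10 over all libraries left out in turn). The gains were all in schisandrin B against normal livers: Oat with DESeq2, Rgn with library totals, and Cyp2e1, Rgn and Slc1a2 in a fit on only the groups compared. The count of the 9 genes called higher there was thus 2 with library totals and 3 in the fit on only those groups, against 1, and the count called lower was 1 with DESeq2 and 1 in that fit, against 0; the cause was not tested.

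Over all genes, that fit called 2951 (1467 higher, 1484 lower) between schisandrin B and normal livers, against 1531 (766 and 765). Library totals made 1231 higher there, and in fibrosis against normal livers 5651 higher and 1917 lower. They moved the median gene by 0.43 in fibrosis against normal, -0.27 in schisandrin B against fibrosis and 0.16 in schisandrin B against normal livers. The share of calls that were higher moved to 74.7% against 52.7%, 32.6% against 47.6% and 70.3% against 50.03%. Upper-quartile factors moved the median by -0.11, 0.13 and 0.02 in the same order of comparisons.

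With one library left out, 702 to 1004 genes were called between schisandrin B and normal livers, 351 to 505 higher and 351 to 501 lower. Named genes of the lists gave 80 results and 1189 values: 1140 kept their side, 49 lost a call and 0 turned. The labels give no replicate numbers and name nothing that pairs libraries across groups, so no paired analysis was run. The replicate numbers used here follow the order of the samples in the series and pair nothing. Depth limits Lgr5, which had 1 to 9 counts per library.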
